A study of Mus musculus with 33 samples.

Results

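Mouse embryonic stem cells that had been differentiated with retinoic acid for 16 days (RA-16d, 3 libraries) were compared with a culture of smooth muscle cells (SMC, 3 libraries). Genes entered the comparison with at least 1 FPKM in at least 3 of these 6 libraries, and genes of chromosomes X and Y were left out. FPKM is the number of sequenced fragments of a gene scaled by transcript length and library size. This kept 13252 of the 52631 genes in the table. The RA-16d cells received 10 µM all-trans retinoic acid for 10 days in medium with 15% serum and then 6 days of medium with 10% serum and no inducer, and the labels call them SMC-like cells derived from stem cells. The SMC libraries are labelled as untreated controls, grown in medium with 15% serum. All 6 libraries carry the strain name 129S2/SvPas. The labels do not give the organ or embryonic origin of the SMC culture, do not say whether it is 1 clone, and do not say whether the replicates of either group were separate cultures, so p-values measure the spread between libraries, which may be technical. The wider study holds 33 libraries in 11 groups, among them untreated stem cells (mES), earlier days of the same treatment (RA-4d, RA-7d and RA-10d), a second treatment with CHIR added, and an extraembryonic endoderm line (XEN). The stem cells had been kept on mouse embryonic fibroblast feeders before treatment, per the labels.

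Smooth muscle cells contract through a lattice of smooth muscle actin, myosin and actin-binding proteins such as transgelin, calponin and caldesmon, anchored in a desmin network. Most of these genes are switched on by serum response factor (SRF), which binds a short AT-rich element called the CArG box, together with its partner myocardin. The same cells build elastic and collagenous matrix, and in culture they can trade contractile proteins for growth, migration and matrix production. Retinoic acid acts through nuclear receptors and is a classic agent for turning stem cells toward endoderm-like or mesoderm-like fates.

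Across genes, the Pearson correlation of log2(FPKM + 1) was 0.980 to 0.985 among RA-16d libraries, 0.988 to 0.989 among SMC libraries and 0.799 to 0.814 between the groups. Group means correlated with SMC at 0.695 for mES, 0.771 for RA-7d, 0.774 for RA-10d, 0.813 for RA-16d and 0.751 for XEN, as a description over the same genes. Between 13597 and 13662 genes reached 1 FPKM in the RA-16d libraries, and between 12456 and 12465 in the SMC libraries. The RA-16d libraries were not alike in every respect. The nuclear transcripts Gm42418 and CT010467.1, which contain ribosomal RNA sequence, were at 34721 and 40024 FPKM in replicate 1, 10538 and 9880 in replicate 2, and 4197 and 3618 in replicate 3, against at most 2934 in SMC. Mitochondrially encoded genes took 8.10% to 9.42% of the summed FPKM in RA-16d and 4.58% to 4.80% in SMC.

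With calls set at a log2 difference of 1 or more in size and an adjusted p under 0.05 (limma, all 33 libraries in the fit), 2227 genes were higher in RA-16d, which is 16.8% of those tested, and 1658 were lower, which is 12.5%. These calls are what "higher" and "lower" mean below. Together they make 29.3% of the genes, while the 3 libraries of each group did not overlap for 73.6% of all genes tested, so a lack of overlap alone says little here. Of the higher genes, 853 differed by at least 2 on the log2 scale, and 1116 had a mean under 1 FPKM in SMC. Of the lower genes, 489 differed by at least 2 and 331 had a mean under 1 FPKM in RA-16d. In 1013 of the higher and 268 of the lower genes, no library of the other group reached 1 FPKM. Such genes, 1490 among all those tested, passed the floor through 1 group only. A difference in them was therefore built into the floor. The libraries are bulk RNA, so fewer cells of a type and less RNA per cell cannot be told apart.

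Defining smooth muscle markers were present in both groups, some at different levels and some not called. Markers of other cell types, described below, were not spread evenly over the groups. In SMC, 20 of 24 epithelial and 26 of 34 endodermal genes had a mean under 1 FPKM, against 2 and 7 in RA-16d. Acta2, the smooth muscle actin (chromosome 19, 34241090 to 34255590, GRCm38), was at 3498, 4093 and 3459 FPKM in the RA-16d libraries and 11373, 11594 and 11339 FPKM in the SMC libraries. Every SMC library lay above every RA-16d library, and the log2 difference was -1.64 ± 0.16 (standard error, limma adjusted p = 1.07e-09). Myh11, the smooth muscle myosin heavy chain that marks mature contractile cells (chromosome 16, 14194535 to 14291372), went the other way. It was at 66.7, 114 and 77.1 FPKM in RA-16d and 16.1, 14.8 and 15.9 FPKM in SMC, a log2 difference of 2.35 ± 0.11 (adjusted p = 1.65e-16). The RA-16d replicates were uneven, with replicate 2 the highest, and without it the Myh11 difference was 2.13. Myocd, the gene for myocardin, did not pass the floor of the comparison, at 0.470 FPKM in RA-16d and 1.29 in SMC.

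**Figure D1:**
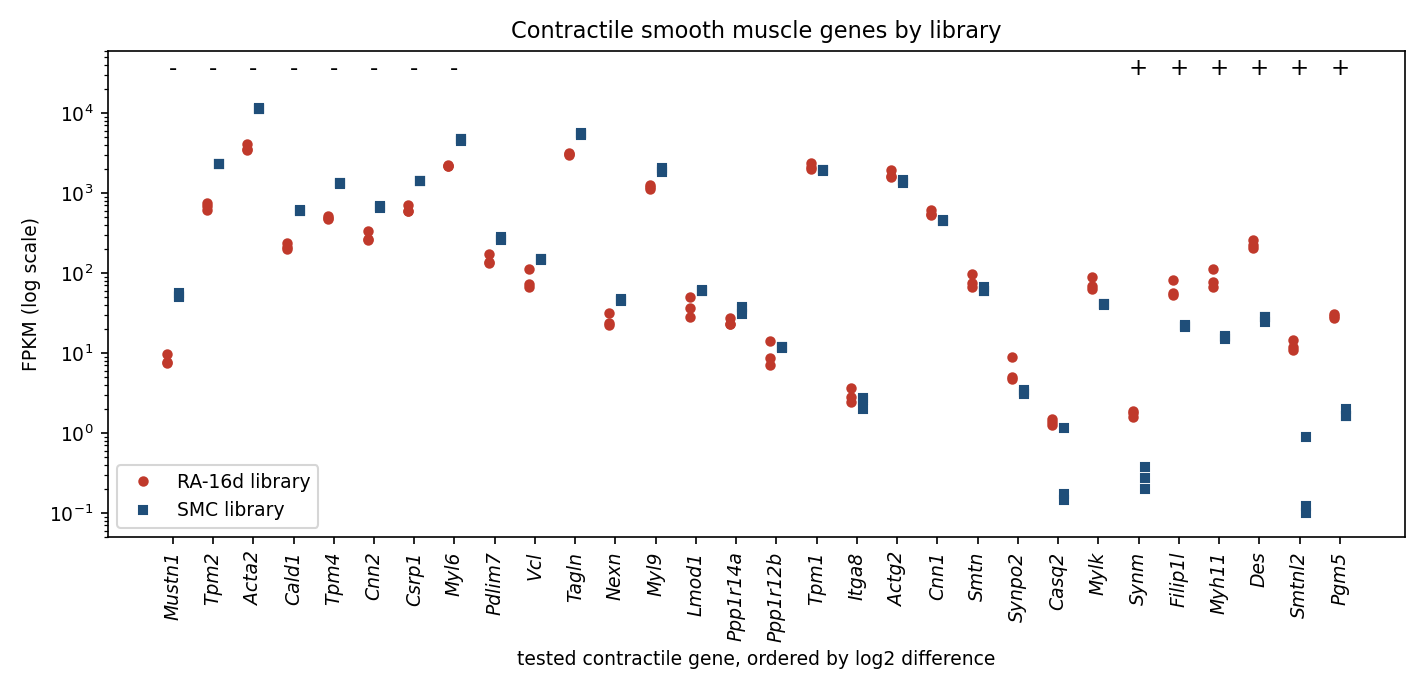
FPKM of 30 tested contractile genes in each of the 6 libraries on a log scale, ordered by log2 difference from lowest to highest, with circles for RA-16d and squares for SMC; a plus marks genes higher and a minus genes lower in RA-16d. The 8 lower genes shown include Acta2 and Tpm2, the 6 higher genes include Myh11 and Des, and the 16 genes between them carry no mark.

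Of 32 contractile genes in the table, 31 were tested and 1, Fhl1, was left out as X-linked. Among the 31, 2 passed through 1 group only, Smtnl2 being 1 of them, so a difference in these was built into the floor. The 6 higher genes were Pgm5, Smtnl2, Des, Myh11, Filip1l and Synm, and the 9 lower genes included Mustn1, Tpm2, Acta2, Cald1, Tpm4, Cnn2, Csrp1 and Myl6, which makes 19.4% and 29.0% of the list against the 16.8% and 12.5% of all genes. The median log2 difference of the list was -0.48, and that of all genes 0.00. Summed over the list, Fhl1 included, contractile FPKM was 17244 to 19434 in RA-16d and 34346 to 35466 in SMC.

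Des encodes desmin, the intermediate filament of muscle. It was at 203, 257 and 224 FPKM in RA-16d and 24.6, 27.8 and 28.0 FPKM in SMC (log2 difference 3.04 ± 0.15, adjusted p = 3.84e-16). The lowest RA-16d library stood far above the highest SMC library. Pgm5, a protein of muscle adherens junctions, was at 27.1, 30.8 and 28.7 FPKM in RA-16d and 1.63, 1.999 and 1.60 FPKM in SMC (3.45 ± 0.14, adjusted p = 5.32e-18). Smtnl2, a smoothelin-like gene, was at 11.9, 10.8 and 14.7 FPKM against 0.0983, 0.123 and 0.894 FPKM (3.33 ± 0.18). Filip1l, a filamin-interacting gene, was at 52.2 to 81.3 FPKM in RA-16d and 21.3 to 22.0 FPKM in SMC (1.47 ± 0.11).

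The lower genes included actin, tropomyosins, caldesmon and calponin 2 of the thin filament. Tpm2, the beta tropomyosin gene, was at 616, 744 and 679.9 FPKM in RA-16d and 2309, 2326 and 2328 FPKM in SMC (-1.77 ± 0.10, adjusted p = 9.00e-15). Cald1, which encodes caldesmon, was at 201, 239 and 212 FPKM against 619, 589.7 and 588 FPKM (-1.46 ± 0.08). Mustn1, a small nuclear protein gene of muscle and bone, was at 9.81, 7.66 and 7.42 FPKM against 56.2, 51.8 and 49.4 FPKM (-2.53 ± 0.11, adjusted p = 5.40e-17). In all 3 genes the groups were apart, with SMC above. With quantile normalization, which gives all libraries the same distribution of values, the lower count was 4, because the differences of Cald1, Tpm4, Cnn2, Csrp1 and Myl6 became smaller than 1 in size, and that of Acta2 was -1.77.

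Several textbook markers were not called. Tagln, which encodes transgelin, was at 3093, 3145 and 3017 FPKM in RA-16d and 5263, 5656 and 5393 FPKM in SMC (-0.82 ± 0.09, adjusted p = 1.26e-08), so its groups were apart but differed by less than the minimum. Cnn1, the basic calponin gene, was at 544, 618 and 525 FPKM against 449, 457 and 447 FPKM (0.31 ± 0.15, adjusted p = 0.07). Actg2, the enteric smooth muscle actin, was at 1637, 1958 and 1565 FPKM against 1421, 1464 and 1351 FPKM (0.28 ± 0.24, adjusted p = 0.292), although the difference reached 1.22 with quantile normalization. Mylk, the myosin light chain kinase, had a log2 difference of 0.84 ± 0.09, Smtn, the smoothelin gene, 0.33 ± 0.11, and Lmod1, the leiomodin gene, -0.67 ± 0.15. Of the contractile genes whose RA-16d mean reached 5 FPKM, 23 of 28 were highest in RA-16d replicate 2, while 37.3% of all such genes were. Without that replicate 6 contractile genes were higher and 10 lower, the addition being Vcl, the vinculin gene, at -1.06.

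The promoters of 26 of the 31 tested contractile genes are in the RefSeq promoter table, 250 bases before to 50 after the transcript start. A CArG box, here with at most 1 G or C among its 6 inner letters and read on either strand, lies in 7 of these, namely Acta2, Cnn2, Myl9, Myl6, Synm, Vcl and Filip1l. Of all 32851 promoters in the table, 9.98% hold such a box, and 1.63% hold one with no G or C among the inner letters. A match is a description of the letters only, and no match says nothing about SRF. Of the genes with an entry, the box was found in 2 of 5 higher, 3 of 8 lower and 2 of 13 uncalled genes. The sequences below are shown because they place the box in genes that were higher (Filip1l), lower (Acta2, Cnn2, Myl6) and uncalled (Myl9, at 1123 to 1266 FPKM in RA-16d and 1829 to 2060.3 in SMC). Capitals mark the box, and all are from RefSeq on GRCm38.p6, 5′ to 3′ on the strand of the gene. In Acta2, on the minus strand at chr19:34255324-34255623, boxes start 84 and 34 bases before the transcript start. Myl9, on the plus strand at chr2:156775214-156775513, has them 161 and 99 bases before it. The single boxes start 56 bases before the start of Cnn2 (chr10:79988350-79988649, plus strand), 50 before that of Myl6 (chr10:128492960-128493259, minus strand) and 62 before that of Filip1l (chr16:57548992-57549291, plus strand).
Acta2: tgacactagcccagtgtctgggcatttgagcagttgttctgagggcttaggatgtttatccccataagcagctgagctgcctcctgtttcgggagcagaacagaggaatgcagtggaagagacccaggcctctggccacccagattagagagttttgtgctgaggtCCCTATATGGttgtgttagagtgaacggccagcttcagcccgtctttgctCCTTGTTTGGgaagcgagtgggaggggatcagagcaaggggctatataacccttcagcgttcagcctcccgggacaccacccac
Myl9: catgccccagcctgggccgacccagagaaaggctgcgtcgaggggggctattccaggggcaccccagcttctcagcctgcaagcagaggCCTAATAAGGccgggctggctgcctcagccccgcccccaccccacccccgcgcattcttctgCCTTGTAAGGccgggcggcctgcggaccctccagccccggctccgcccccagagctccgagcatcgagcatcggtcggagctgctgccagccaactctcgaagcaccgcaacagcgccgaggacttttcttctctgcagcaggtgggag
Cnn2: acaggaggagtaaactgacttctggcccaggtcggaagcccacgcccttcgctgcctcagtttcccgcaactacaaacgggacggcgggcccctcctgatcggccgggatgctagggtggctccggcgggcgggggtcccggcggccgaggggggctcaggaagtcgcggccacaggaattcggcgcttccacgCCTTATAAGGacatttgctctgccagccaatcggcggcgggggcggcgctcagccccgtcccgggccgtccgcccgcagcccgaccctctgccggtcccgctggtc
Myl6: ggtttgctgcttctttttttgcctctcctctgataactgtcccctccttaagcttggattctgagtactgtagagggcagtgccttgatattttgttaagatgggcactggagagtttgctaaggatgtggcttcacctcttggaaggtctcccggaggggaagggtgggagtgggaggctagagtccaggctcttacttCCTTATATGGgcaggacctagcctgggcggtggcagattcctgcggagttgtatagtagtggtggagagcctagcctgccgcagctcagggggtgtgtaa
Filip1l: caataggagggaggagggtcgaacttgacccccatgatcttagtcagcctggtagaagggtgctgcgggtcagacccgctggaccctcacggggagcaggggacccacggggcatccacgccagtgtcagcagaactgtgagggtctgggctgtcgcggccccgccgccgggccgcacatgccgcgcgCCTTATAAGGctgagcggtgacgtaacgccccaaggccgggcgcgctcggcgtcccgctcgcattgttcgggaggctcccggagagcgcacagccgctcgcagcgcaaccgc

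Regulators of the smooth muscle lineage and its embryonic sources differed in both directions. Of 34 in the table, 29 were tested, 5 of them passing through 1 group only, and 8 were higher and 5 lower, or 9 lower with quantile normalization. The 8 and 5 make 27.6% and 17.2% of those tested, against 16.8% and 12.5% of all genes. Pitx1, a homeobox factor of the hindlimb and oral region, was at 75.8, 75.1 and 79.5 FPKM in RA-16d and 0.895, 0.850 and 0.682 FPKM in SMC (5.43 ± 0.10, adjusted p = 3.98e-25). Foxf1, the forkhead factor of visceral and splanchnic mesenchyme, was at 23.3 to 28.2 against 0.915 to 1.08 FPKM (3.71 ± 0.10), and Hand2 at 36.2 to 49.0 against 2.37 to 4.45 FPKM (3.28 ± 0.16). Tbx2 (3.01) and Klf5 (2.98) were also among the higher genes.

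Prrx1, a homeobox factor of limb and craniofacial mesenchyme, was the lowest of the regulators, at 5.15, 6.71 and 6.24 FPKM in RA-16d and 119, 118 and 127 FPKM in SMC (-4.12 ± 0.12, adjusted p = 1.74e-21). Foxc2 was at 3.08 to 3.31 FPKM in RA-16d and 35.7 to 41.1 in SMC (-3.27 ± 0.13), and Tbx18 at 0.341 to 0.423 against 7.91 to 8.82 FPKM (-2.76 ± 0.10). Foxc1 (-1.38) and the Notch effector Hey2 (-1.23) were lower as well. Srf itself was at 27.6, 42.3 and 31.4 FPKM in RA-16d and 25.9, 26.6 and 24.9 FPKM in SMC (0.35 ± 0.11), and was not called. Klf4, a factor known to oppose the contractile state in vascular smooth muscle, was at 22.9 to 32.4 FPKM against 48.7 to 57.2 FPKM (-0.89 ± 0.09) and was not called.

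Markers of mural cells and pericytes, the contractile cells of small vessels, went both ways. Of 18 listed genes, 14 were tested, 4 through 1 group only, with 4 higher and 6 lower. The shares are 28.6% and 42.9%, against 16.8% and 12.5% of all genes. Pdgfrb, the receptor that defines this class, was at 9.31, 11.2 and 8.81 FPKM in RA-16d and 155, 150.2 and 153 FPKM in SMC (-3.84 ± 0.09, adjusted p = 8.55e-23). Ebf1, an early factor of pericytes, was at 0.148 to 0.320 against 18.4 to 22.6 FPKM (-4.04 ± 0.19), and Ndufa4l2 (-3.39) and Cspg4 (-2.31) were also lower. Kcnj8, the pore of the vascular ATP-sensitive potassium channel, was at 42.6, 44.9 and 45.5 FPKM in RA-16d and 0.189, 0.529 and 0.618 FPKM in SMC (4.98 ± 0.11), and Steap4 differed by 3.96 ± 0.11. Pdgfra, the receptor of many mesenchymal cells, was at 25.3 to 26.7 and 21.1 to 22.9 FPKM (0.22 ± 0.08) and was not called.

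Among ion channels and receptors for contractile agonists, 30 of 43 genes were tested, 12 through 1 group only, with 12 higher and 6 lower. Ano1, the calcium-activated chloride channel, was at 9.82 to 12.6 FPKM in RA-16d and 0.133 to 0.280 in SMC (3.36 ± 0.12). The T-type calcium channel genes Cacna1h (2.75) and Cacna1g (2.50), the serotonin receptor Htr2b (2.51) and the endothelin receptor Ednra (2.33) were also higher. In the other direction, the vasopressin receptor Avpr1a was at 0.764 to 0.972 FPKM in RA-16d and 19.02 to 22.1 in SMC (-3.55 ± 0.09), and the thromboxane receptor Tbxa2r at 7.14 to 10.7 against 77.4 to 92.1 FPKM (-3.05 ± 0.21). Adra1d, an adrenergic receptor, differed by -2.05 ± 0.21. With quantile normalization this list had 9 higher and 10 lower genes, so the balance of its directions depended on the scaling.

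Extracellular matrix genes were called in both directions, with a balance that varied by gene family. All 23 elastic fibre genes in the table were tested, 1 through 1 group only, and 4 were higher and 13 lower. That makes 17.4% and 56.5%, against 16.8% and 12.5% of all genes, so the higher share is near that of all genes. Mfap5, a microfibril protein gene, was at 14.2, 9.10 and 10.1 FPKM in RA-16d and 982, 984 and 945 FPKM in SMC (-6.35 ± 0.19, adjusted p = 6.61e-21). Fbln2, a fibulin gene (chromosome 6, 91212455 to 91272540), was at 68.9, 99.97 and 80.1 FPKM in RA-16d and 4487, 4444 and 4391 FPKM in SMC (-5.74 ± 0.19, adjusted p = 5.08e-20). Lox, the lysyl oxidase that crosslinks elastin and collagen, was at 128, 161 and 131 FPKM in RA-16d and 2399.7, 2302 and 2314 FPKM in SMC (-4.06 ± 0.17). In these genes the SMC libraries were nearly level and all far above RA-16d.

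Loxl4 (-4.08), Emilin2 (-3.86) and Loxl3 (-3.84) completed the 6 lowest of the elastic fibre genes. Mfap4, in contrast, was at 418, 427 and 407 FPKM in RA-16d and 29.4, 36.8 and 37.1 FPKM in SMC (3.57 ± 0.25, adjusted p = 8.62e-13). Mfap2 (3.42), Fbln1 (2.92) and Fbn2 (2.45), the fibrillin gene of developing tissue, were higher too, while Fbn1 was lower (-3.23). Eln, the gene for elastin itself, was at 96.7, 163 and 127 FPKM in RA-16d and 72.9, 76.3 and 73.4 FPKM in SMC (0.76 ± 0.14, adjusted p = 1.87e-05). It was above SMC in all 3 libraries and was not called, though with quantile normalization its difference was 1.04.

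Of 35 collagen genes outside the basement membrane list, 27 were tested, 8 through 1 group only, with 9 higher and 13 lower. Those are 33.3% and 48.1%, against 16.8% and 12.5% of all genes. Col1a2 was at 152, 236 and 191 FPKM in RA-16d and 5117, 4986 and 5075 FPKM in SMC (-4.73 ± 0.16, adjusted p = 1.57e-19). Its partner chain in type I collagen, Col1a1, was at 572, 1014 and 734 FPKM against 3621, 3443 and 3397 FPKM (-2.21 ± 0.14, adjusted p = 1.80e-13). The pair therefore differed between the groups by unequal amounts, since Col1a2 was 26.2-fold and Col1a1 4.51-fold higher in SMC by mean FPKM. Col1a1 was highest in RA-16d replicate 2, and its difference was -2.43 without that library.

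Col5a2 (-4.36), Col11a1 (-4.27), Col28a1 (-3.44), Col5a3 (-3.20) and Col15a1 (-3.02) were the other collagen genes with the largest deficits in RA-16d. Col3a1, the reticular fibre collagen, was at 555, 782 and 676 FPKM in RA-16d and 1592, 1588 and 1659 FPKM in SMC (-1.28 ± 0.20), a difference that shrank to -0.52 with quantile normalization. Col8a2, a short-chain collagen, was higher at 54.5, 62.5 and 68.7 FPKM against 0.962, 0.619 and 0.655 FPKM (5.17 ± 0.15, adjusted p = 4.61e-21). Col6a1 (1.69) and Col6a2 (1.52) of type VI collagen were higher, whereas Col6a3 of the same collagen was lower (-1.97).

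Small leucine-rich proteoglycans, which coat collagen fibrils, were mostly higher in RA-16d by number of genes. Of 16 listed genes, 10 were tested, 2 through 1 group only, with 8 higher and 1 lower. They make 80.0% and 10.0%, against 16.8% and 12.5% of all genes. The summed FPKM of the list, which includes an X-linked member that was not tested, went the other way, at 1507 to 1556 in RA-16d and 4344 to 4558 in SMC. Dcn, the decorin gene, was at 818, 766 and 781 FPKM in RA-16d and 131, 133 and 137 FPKM in SMC (2.55 ± 0.10, adjusted p = 3.35e-18). Ogn (2.72), Lum (2.66), Epyc (2.64), Podn (1.82) and Optc (1.68) were the others with the largest positive differences, and Prelp was the lower one (-2.86). Of 20 matricellular genes tested, 2 passed through 1 group only. Matricellular genes went mostly the other way, with 11 lower (55.0%) and 4 higher (20.0%). They include Thbs2 (-4.16), Thbs1 (-2.56), Smoc1 (-4.69) and Nov (-4.53) on the lower side, and Tgfbi, at 178 to 227 FPKM against 3.50 to 4.35 FPKM (5.33 ± 0.07), on the higher side. Cyr61 was level, at 855, 874 and 873 FPKM in RA-16d and 855, 874 and 851 FPKM in SMC (0.01 ± 0.04).

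The basement membrane differed in its laminin chains, while its main collagen was not called. Of 21 genes, 17 were tested, 2 through 1 group only, with 8 higher and 4 lower. The shares are 47.1% and 23.5%, against 16.8% and 12.5% of all genes. Lama1, the laminin chain of early embryonic basement membranes, was at 95.1, 92.3 and 95.4 FPKM in RA-16d and 7.25, 7.53 and 7.16 FPKM in SMC (3.52 ± 0.05, adjusted p = 3.28e-27). Lama2, the chain of muscle basement membranes, was at 0.841, 1.28 and 1.22 FPKM in RA-16d and 59.6, 48.9 and 44.7 FPKM in SMC (-4.62 ± 0.10, adjusted p = 5.07e-24). Lamb3 (2.79), Lamc3 (2.47), Lama5 (2.40), Lamb1 (2.19) and Agrn (1.90) were higher, and Lama4 (-2.32), Nid1 (-2.19) and Lamb2 (-1.62) lower. Col4a1 was at 577 to 755 FPKM in RA-16d and 619 to 646 in SMC (0.07 ± 0.07).

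Proteases that turn over matrix, with their inhibitors, differed in both directions, with 9 higher and 11 lower of 27 tested from 34, 4 of them through 1 group only. That is 33.3% and 40.7%, against 16.8% and 12.5% of all genes. Serpine2, a protease nexin that inhibits serine proteases, was at 234, 289.8 and 253 FPKM in RA-16d and 19.2, 19.5 and 19.4 FPKM in SMC (3.67 ± 0.07, adjusted p = 5.91e-25). Every RA-16d library lay above every SMC library. The matrix metalloproteinases Mmp3 (-4.38) and Mmp14 (-1.32) were lower, and Mmp15 (4.03) and Mmp2 (1.92) higher.

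Integrins, the receptors for matrix, had 4 higher and 6 lower of 16 tested from 20, 3 of them through 1 group only. As shares these are 25.0% and 37.5%, against 16.8% and 12.5% of all genes. Itga11, a collagen receptor chain, was at 1.09, 1.90 and 1.31 FPKM in RA-16d and 54.0, 53.6 and 52.1 FPKM in SMC (-4.49 ± 0.09), and the fibronectin receptor chain Itga5 at 69.0 to 111 against 441 to 463 FPKM (-2.40 ± 0.09). The laminin receptor chains went both ways. Itga3 was at 42.1, 46.5 and 48.9 FPKM in RA-16d and 3.26, 2.18 and 2.09 FPKM in SMC (3.75 ± 0.09) and Itga6 was higher by 2.45 ± 0.08, whereas Itga7, the chain of muscle, was lower (-2.22 ± 0.12).

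The 15 highest and 15 lowest called genes with at least 5 FPKM in the higher group were of several kinds. They were picked from genes whose groups did not overlap, so the separation of their libraries was a condition of the choice. Igf2, the fetal insulin-like growth factor (chromosome 7, 142650766 to 142666816), was at 3145, 2836 and 3048 FPKM in RA-16d and 0.310, 0.405 and 0.795 FPKM in SMC (10.98 ± 0.08, adjusted p = 6.35e-34). H19, the noncoding RNA of the same imprinted locus, was at 2341, 2382 and 2644 FPKM against 1.45, 1.62 and 2.08 FPKM (9.83 ± 0.07). Dlk1, a membrane protein of fetal and progenitor cells (chromosome 12, 109452823 to 109463336), was at 1040.0, 1111 and 1185 FPKM against 1.41, 1.61 and 2.49 FPKM (8.63 ± 0.17). All 3, picked for groups that did not overlap, were far lower in every SMC library than in any RA-16d library. No SMC library reached 1 FPKM for Igf2, so a difference in it was built into the floor.

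The simple keratin genes Krt18 (7.95) and Krt8 (7.53) followed, and then Nrep (7.36), the mitochondrial carrier Ucp2 (7.30), the growth factors Ptn (7.08) and Mdk (6.73), the sialomucin Podxl (6.97), the secreted chaperone Clu (6.67) and the protease inhibitor Spint2 (6.52). Pgc, a pepsinogen gene of the stomach, was at 147, 136 and 132 FPKM in RA-16d and was listed at 0 in each SMC library. Gkn2, a gastrokine gene, stood at 105, 93.2 and 102 FPKM and the glutathione peroxidase Gpx2 at 132, 92.2 and 118 FPKM in RA-16d, both again listed at 0 throughout SMC. For Krt18, Krt8, Podxl, Pgc, Gkn2 and Gpx2 no SMC library reached 1 FPKM, so a difference was built into the floor. Mdk reached 1079.8, 851 and 955 FPKM in RA-16d against 8.40, 6.41 and 9.45 FPKM in SMC, and Clu 1232, 1129 and 1191 FPKM against 10.3, 9.73 and 12.1 FPKM.

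Wisp2, a matricellular gene of the CCN family (chromosome 2, 163820861 to 163833146), was the lowest, at 0.364, 0.184 and 1.06 FPKM in RA-16d and 1185, 1185 and 1114 FPKM in SMC (-9.60 ± 0.19, adjusted p = 1.26e-24). S100a4, a calcium-binding protein of motile mesenchymal cells, was at 13.1, 8.18 and 7.85 FPKM against 1862, 1956 and 1814 FPKM (-7.49 ± 0.29). Csf1, the macrophage growth factor, was at 12.7, 13.9 and 12.8 FPKM against 769.8, 764 and 772 FPKM (-5.77 ± 0.07). For each of these genes, picked for groups that did not overlap, the lowest SMC library exceeded the highest RA-16d library many times over.

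The lysosomal protease Ctsk (-6.42), the secretory-pathway pseudokinase Fam20a (-6.04), the adhesion receptor Adgrd1 (-5.91), the imprinted adaptor Grb10 (-5.85), Ms4a4d (-5.76), the pentraxin Ptx3 (-5.60) and Apod (-5.54) also belonged to the 15 lowest, with Mfap5 and Fbln2. Apod, an apolipoprotein gene, was listed at 0 in every RA-16d library and at 52.2, 45.1 and 40.001 FPKM in SMC. For Apod, Fam20a and Adgrd1 no RA-16d library reached 1 FPKM, so a difference in them was built into the floor. Rpl29 and Rps3a1, also among the 15, are ribosomal protein genes that are treated with their copies below.

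**Figure D2:**
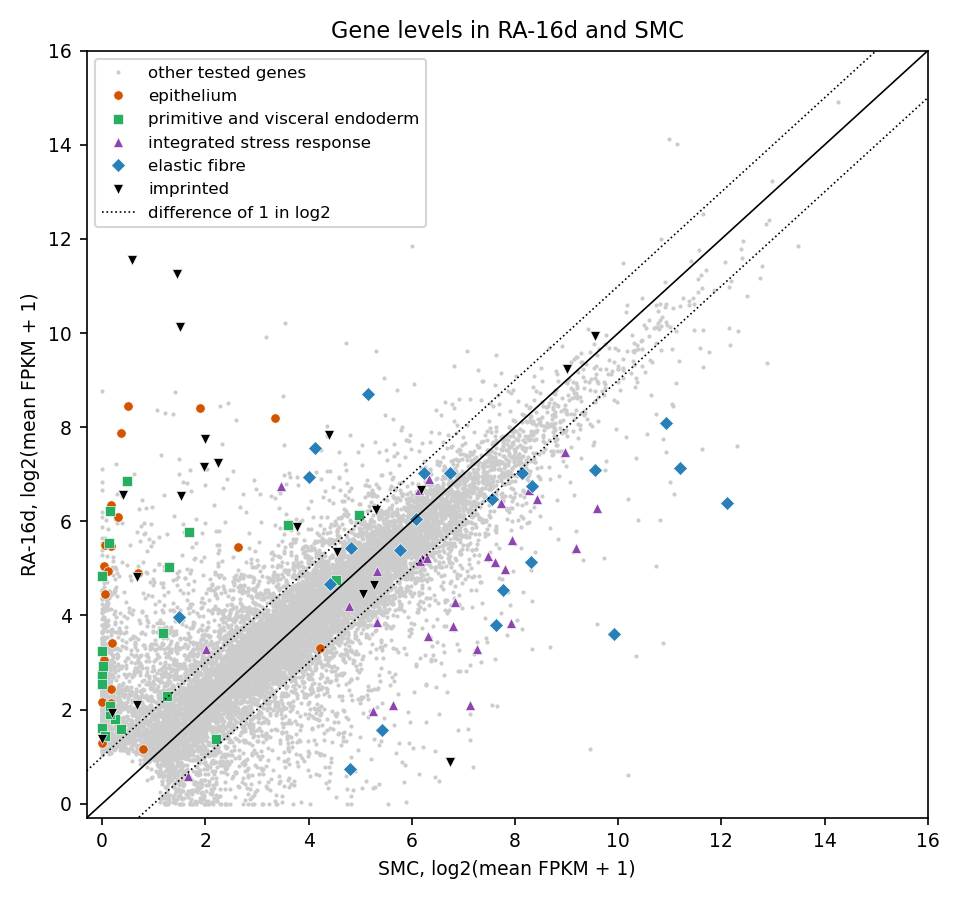
Mean level of each of the 13252 tested genes as log2(mean FPKM + 1), SMC on the x axis and RA-16d on the y axis, with 5 gene lists in colour, the line of equality and dotted lines at a log2 difference of 1. Epithelial, endodermal and imprinted genes lie mostly above the dotted lines, and genes of the integrated stress response mostly below them.

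Genes of epithelia had high levels in RA-16d and low levels in SMC. Of 24 listed genes, 22 were tested, with 20 higher (90.9%, against 16.8% of all genes) and none lower. As 18 of the 22 passed the floor through 1 group only, a difference in these was built into the floor. Krt18 was at 386, 315 and 339 FPKM in RA-16d and 0.509, 0.482 and 0.239 FPKM in SMC. Epcam, the epithelial adhesion molecule, was at 84.8, 74.9 and 81.7 FPKM against 0.156, 0.0633 and 0.150 FPKM (6.18 ± 0.07). Cdh1, which encodes E-cadherin, was at 32.8, 31.0 and 33.02 FPKM against 0.0365, 0.0300 and 0.0253 FPKM (5.01 ± 0.09, adjusted p = 1.80e-25). The tight-junction genes Cldn6 (5.77) and Cldn4 (5.43) were higher too. The list summed to 1547 to 1770 FPKM in RA-16d and 32.8 to 46.2 in SMC.

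Mesothelium is the epithelial lining of body cavities and, over the heart, the epicardium, a known source of vascular smooth muscle. Of 26 such genes 25 were tested, 10 through 1 group only, with 20 higher and 2 lower. These calls make 80.0% and 8.0%, against 16.8% and 12.5% of all genes. Wt1, the transcription factor of this lining, was at 107, 96.9 and 108 FPKM in RA-16d and 3.99, 4.02 and 4.27 FPKM in SMC (4.36 ± 0.09, adjusted p = 1.03e-24). Upk3b, a uroplakin used as a mesothelial marker, was at 92.6, 93.4 and 100.04 FPKM against 0.285, 0.199 and 0.189 FPKM (6.30 ± 0.10). Podxl, Gpm6a (4.94) and the keratins were the other large differences, and Tbx18 (-2.76) and Aldh1a1 (-1.75) were lower. The list shares Krt7, Krt8, Krt18 and Krt19 with the epithelial list. It summed to 1735 to 1910 FPKM in RA-16d and 292 to 330.5 in SMC.

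Markers of primitive and visceral endoderm were present in RA-16d as well. Of 34 listed genes, 22 were tested, 14 through 1 group only, with 20 higher and none lower, or 16 and 1 with quantile normalization. The 20 make 90.9%, against 16.8% of all genes. Sox17, a regulator of endoderm and vessels, was at 92.9, 129 and 122 FPKM in RA-16d and 0.495, 0.627 and 0.0569 FPKM in SMC (6.38 ± 0.14). Foxa2 was at 28.0, 25.1 and 29.6 FPKM and listed at 0 in SMC. The water channel Aqp8 (6.06), Tspan8 (5.42), Rbp4 (3.76) and Gata4 (4.08) were the others with the largest differences. Gata4 was at 48.3 to 58.4 FPKM in RA-16d and 1.93 to 2.68 FPKM in SMC. Gata6 was at 68.9 ± 5.32 against 30.7 ± 0.643 (SD, n = 3) FPKM (1.14 ± 0.08) and the endocytic adaptor Dab2 at 58.0 to 61.9 against 10.6 to 12.3 FPKM (2.31 ± 0.13). Among the serum protein genes of visceral endoderm, Ttr was at 7.94 to 9.54 FPKM in RA-16d and listed at 0 in SMC. Afp was at 4.87, 4.24 and 5.28 FPKM in RA-16d and listed at 0 in SMC, while Alb, Apob and Fabp1 did not pass the floor. The endoderm list summed to 888 to 1026 FPKM in RA-16d and 75.6 to 78.0 in SMC, where 12 of its members were listed at 0. The part of epithelial, mesothelial or endodermal cells in the other differences was not tested.

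Most pluripotency genes did not pass the floor. Of 33 listed genes, 14 were tested, 6 of them through 1 group only, and 19 were under the floor, Nanog among them. Of the 14, 9 were higher (64.3%) and 1 lower (7.14%), against 16.8% and 12.5% of all genes. Dppa5a was at 56.8, 28.9 and 44.9 FPKM in RA-16d and 0.340, 0.273 and 2.18 FPKM in SMC (4.61 ± 0.23). Pou5f1 (Oct4) was at 5.36, 4.36 and 3.21 FPKM in RA-16d and 0.208, 0.0863 and 3.45 FPKM in SMC, so that the groups overlapped through SMC replicate 3. The difference was 1.54 ± 0.29, and 2.19 without that library.

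Neural and neural crest genes were mixed, with 5 higher and 7 lower of 16 tested from 35, 10 of them through 1 group only. The shares are 31.25% and 43.75%, against 16.8% and 12.5% of all genes. With quantile normalization 3 were higher and 9 lower. The list summed to 65.8 to 82.0 FPKM in RA-16d and 216 to 226.5 in SMC. In SMC the crest factors Sox10 and Foxd3 were at 8.41, 8.70 and 10.5 and 4.42, 6.59 and 7.91 FPKM, against 0 to 0.119 and 0 to 0.117 FPKM in RA-16d (-3.29 ± 0.08 and -2.74 ± 0.21). Tubb3, a neuronal tubulin, was at 115 to 121 FPKM in SMC and 4.16 to 7.52 in RA-16d (-4.12 ± 0.24). Of 24 cardiac genes 11 were tested, 5 through 1 group only, with 7 higher (63.6%) and 1 lower (9.09%, Myl4, -1.02 ± 0.23). The Myl4 call was lost with factors of the TMM kind. The highest was the natriuretic peptide Nppa at 28.6, 26.1 and 24.7 FPKM in RA-16d and listed at 0 in SMC. The cardiac myosin genes Myh6 and Myh7 were under the floor. Of 19 endothelial genes 11 were tested, 4 through 1 group only, with 6 higher (54.5%) and 3 lower (27.3%). The endothelial list summed to 117 to 140 FPKM in RA-16d and 137 to 146 in SMC. Kdr, a VEGF receptor, was at 21.1 to 25.5 FPKM in RA-16d and 0.0839 to 0.246 in SMC (4.33 ± 0.09) and the TGF-beta co-receptor Eng at 5.00 to 8.53 against 88.0 to 99.7 FPKM (-3.59 ± 0.15), while Cdh5, which defines endothelium, was under the floor. Of 23 blood and macrophage genes 8 were tested, 3 through 1 group only, with 3 higher and 3 lower, 37.5% each. Cd68, Cd74 and Cd14 were the higher genes, by 2.93, 2.78 and 1.27 with quantile normalization. Csf1r was among the lower genes (-1.99 with quantile normalization), and Ptprc (CD45) was at 0 in every RA-16d library. The list summed to 56.2 to 74.7 FPKM in RA-16d and 49.6 to 59.8 in SMC.

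Genes that accompany a mesenchymal state were mostly at higher levels in SMC. All 18 genes of the list passed the floor, none of them through 1 group only, and 13 were lower and 1 higher in RA-16d. Those are 72.2% and 5.56%, against 12.5% and 16.8% of all genes. The list median was -2.16, against 0.00 for all genes. Acta2, Prrx1, Pdgfrb and Fn1 belong to it and to other lists above. Vim, the mesenchymal intermediate filament, was at 597, 608 and 657 FPKM in RA-16d and 3219, 3296 and 3070.4 FPKM in SMC (-2.36 ± 0.06). Fn1, the fibronectin gene, was at 409 to 607 against 2194 to 2264 FPKM (-2.21 ± 0.12), and Cdh2, N-cadherin, at 6.72 to 10.2 against 54.9 to 58.6 FPKM (-2.55 ± 0.10). The zinc finger factors Snai2 (-2.17) and Zeb2 (-2.17) were lower, while Zeb1 (-0.34) and Twist1 (-0.37) were not called. Thy1 was at 91.9 to 104 FPKM in RA-16d and 298 to 319.7 in SMC (-1.62 ± 0.22). Mmp2, a gelatinase, was the higher gene (1.92 ± 0.14).

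General actin and adhesion genes were lower more often than they were higher. Of 40 tested from 41, 18 were lower (45.0%) and 4 higher (10.0%), against 12.5% and 16.8% of all genes. All 40 had groups that did not overlap, against 73.6% of all genes. Capg (-3.67), Tns1 (-3.11), Tln2 (-2.86), Myh9 (-2.70), Lasp1 (-2.10) and Pdlim1 (-2.07) were the lowest. Myh9, the main nonmuscle myosin heavy chain, was at 33.01, 50.1 and 43.2 FPKM in RA-16d and 275, 266 and 284 FPKM in SMC. Its paralog Myh10 was at 159, 180.3 and 160.3 FPKM in RA-16d and 48.7, 48.2 and 51.8 FPKM in SMC, higher by 1.73 ± 0.09. Pdlim3, a partner of muscle alpha-actinin, was the highest, at 50.2 to 58.5 against 0.296 to 0.897 FPKM (5.12 ± 0.16). It was the only 1 of the 40 to pass through 1 group only, so a difference in it was built into the floor. With quantile normalization 12 were lower and 4 higher. In RA-16d, 35 of 39 such genes with a mean of 5 FPKM or more were highest in replicate 2.

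Imprinted genes, which are expressed from 1 parental copy and often act in fetal growth, were more often higher than lower. Of 24 listed genes, 22 were tested, 6 through 1 group only. Among the 22, 1 was lower (4.55%, against 12.5% of all genes) and 14 were higher (63.6%, against 16.8%). Beside Igf2, H19 and Dlk1, these were led by Peg3 at 92.6, 99.6 and 88.8 FPKM in RA-16d and 0.325, 0.331 and 0.327 FPKM in SMC (6.15 ± 0.06), Nnat (5.78) and Peg10 (5.18). Cdkn1c, an inhibitor of the cell cycle, was at 209, 229 and 245 FPKM against 21.5, 20.0 and 18.5 FPKM (3.44 ± 0.09). The noncoding RNAs of the Dlk1 locus had smaller differences than Dlk1. Meg3 was at 1011, 951 and 985 FPKM in RA-16d and 706, 785 and 764 FPKM in SMC (0.39 ± 0.07) and Rian differed by 0.22 ± 0.09, and neither was called. Mirg, a further noncoding RNA of the locus, was at 84.1, 68.8 and 71.1 FPKM against 41.6, 41.6 and 32.9 FPKM (0.93 ± 0.15) and was not called either. With quantile normalization Meg3 reached 1.22 and Mirg 1.07. Grb10 was the lower call, at 0.588, 0.959 and 1.01 FPKM in RA-16d and 105, 102 and 110.1 FPKM in SMC (-5.85 ± 0.12, adjusted p = 9.48e-25). Ndn (-0.65 ± 0.08) and Snrpn (-0.61 ± 0.12) also had negative differences and were not called.

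Retinoid genes differed on day 16, after 6 days without the inducer. Of 28 listed genes, 22 were tested, 4 through 1 group only, with 11 higher and 4 lower. Cyp26a1, the enzyme that degrades retinoic acid and a direct target of its receptors, was at 95.4, 88.2 and 90.8 FPKM in RA-16d and 0, 0.184 and 0.757 FPKM in SMC (6.18 ± 0.12, adjusted p = 6.50e-25). Earlier in the same treatment it had been at 1031, 397 and 177 FPKM on days 4, 7 and 10. Stra6, the cell-surface retinol transporter, was at 32.8, 32.2 and 38.9 FPKM in RA-16d and 0.0734, 0.123 and 0.291 FPKM in SMC (4.94 ± 0.11). The binding proteins Crabp2 (3.87), Rbp4 (3.76) and Crabp1 (2.91) and the enzyme Aldh1a2 (2.26), which makes retinoic acid, were higher as well. SMC held more of the related enzymes Aldh1a3, at 23.6 to 26.4 FPKM against 0.295 to 0.625 FPKM in RA-16d (-4.13 ± 0.13), and Aldh1a1 (-1.75).

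The promoter of Cyp26a1 (RefSeq, GRCm38.p6, chr19:37697558-37697857, plus strand) is shown because it is the only 1 of 17 retinoid genes with an entry that holds the direct repeat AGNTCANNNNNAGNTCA, searched on both strands. The letters spell a half-site of the retinoic acid receptor repeated after 5 bases, and 0.204% of the 32851 promoters contain it. It starts 32 bases before the transcript start, and capitals mark it, here as read on the other strand. Nothing is drawn about the receptor from the promoters without a match.
Cyp26a1: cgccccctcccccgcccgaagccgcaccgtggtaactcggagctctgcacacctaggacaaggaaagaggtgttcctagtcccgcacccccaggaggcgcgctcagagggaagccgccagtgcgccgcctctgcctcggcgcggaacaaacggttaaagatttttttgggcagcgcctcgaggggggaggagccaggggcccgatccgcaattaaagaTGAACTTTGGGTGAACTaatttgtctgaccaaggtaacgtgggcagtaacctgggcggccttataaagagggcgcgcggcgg

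Hox genes, which encode position along the body axis, were called in both directions. Of 39 listed genes, 29 were tested, with 3 higher and 4 lower, or 10.3% and 13.8% against 16.8% and 12.5% of all genes. In each of the Hoxa, Hoxb and Hoxc clusters 1 gene passed through 1 group only, Hoxa11 and Hoxb13 among them. For these a difference was built into the floor. Among paralogs 1 to 5, 2 of 12 were higher and none lower, namely Hoxc5 (1.76 ± 0.18) and Hoxc4 (1.26 ± 0.10). That higher share is near the 16.8% of all genes. Among paralogs 10 to 13, 3 of 6 were lower and 1 higher. Hoxc10 was at 1.54, 2.51 and 2.10 FPKM in RA-16d and 20.7, 20.8 and 19.9 FPKM in SMC (-2.83 ± 0.14), Hoxa11 at 5.11, 3.68 and 3.82 FPKM in SMC and close to 0 in RA-16d (-2.37 ± 0.16), and Hoxc11 differed by -1.87 ± 0.12. Among paralogs 6 to 9, none of 11 was higher and 1 was lower, Hoxd9 (-1.37). Hoxb13, the most posterior gene of its cluster, was at 2.98, 2.83 and 3.66 FPKM in RA-16d and listed at 0 in SMC (2.05 ± 0.12).

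Of 42 Wnt pathway genes 36 were tested, 13 through 1 group only, with 19 higher and 6 lower. These calls make 52.8% and 16.7%, against 16.8% and 12.5% of all genes. The lower share is near that of all genes. The ligand Wnt4 was at 31.4, 29.7 and 34.5 FPKM in RA-16d and 0.0974, 0.162 and 0.158 FPKM in SMC (4.85 ± 0.08), and the agonist Rspo1 at 27.9 to 33.7 against 0.150 to 0.291 FPKM (4.70 ± 0.14). Axin2, a feedback target of the pathway, was at 5.49 to 7.65 against 0.114 to 0.507 FPKM (2.55 ± 0.14), and the receptor gene Tnfrsf19 (4.35), the antagonist Sfrp2 (2.54) and the ubiquitin ligase Rnf43 (2.24) were higher too. Nkd2 (-2.15), Rspo2 (-1.98), Fzd4 (-1.38), Fzd8 (-1.35), Wnt2 (-1.19) and Fzd2 (-1.09) were lower. In the hedgehog pathway 6 of 15 tested genes were higher and none lower, with 3 of the 15 passing through 1 group only. The target Gli1 was at 7.73, 10.4 and 9.84 FPKM in RA-16d and 0.117, 0.0661 and 0.0765 FPKM in SMC (3.24 ± 0.12), the ligand Ihh at 8.10 to 9.55 against 0 to 0.188 FPKM (3.24 ± 0.11) and the co-receptor Gas1 at 122 to 141 against 4.44 to 5.40 FPKM (4.55 ± 0.12). The other target and receptor Ptch1 was not called (0.80 ± 0.12).

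Among TGF-beta and BMP genes 9 of 34 tested were higher and 10 lower, with 3 of the 34 passing through 1 group only. Those are 26.5% and 29.4%, against 16.8% and 12.5% of all genes. Acvrl1, a type I receptor, was at 0.670, 0.696 and 1.19 FPKM in RA-16d and 57.3, 52.9 and 55.2 FPKM in SMC (-4.93 ± 0.18), and the activin chain Inhbb at 1.33 to 1.72 against 39.2 to 43.2 FPKM (-4.06 ± 0.13). The ligand Tgfb1, a known inducer of the contractile program, was at 16.1 to 18.8 FPKM in RA-16d and 46.3 to 50.8 in SMC (-1.38 ± 0.15). The BMP antagonist Nog was at 6.09, 8.29 and 9.03 FPKM in RA-16d and listed at 0 in SMC, while the antagonist Grem1 (2.31) and the ligands Bmp2 (2.40) and Bmp7 (2.24) were higher. For growth factors of the PDGF, FGF and IGF families, 42 of 44 genes were tested, 8 through 1 group only. Of these, 18 were higher (42.9%) and 11 lower (26.2%). Fgf7, a mesenchymal factor that acts on epithelia, was at 0.194 to 0.308 FPKM in RA-16d and 30.3 to 34.6 FPKM in SMC (-4.70 ± 0.15), whereas its receptor gene Fgfr2 was at 15.1 to 20.4 against 2.62 to 3.38 FPKM (2.29 ± 0.13). Igf1 (2.52 ± 0.23) was higher, and Igfbp7 (-2.63 ± 0.09) and Igf1r (-1.06 ± 0.15) were lower.

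Genes of the integrated stress response were mostly lower in RA-16d. They are driven by the factor ATF4 when amino acids run short or proteins misfold. Of 30 listed genes, 29 were tested, only 1 of them through 1 group, with 22 lower and 2 higher in RA-16d, or 75.9% and 6.90% of those tested. Trib3, an inhibitory pseudokinase induced by ATF4, was at 3.83, 2.86 and 3.09 FPKM in RA-16d and 137, 146 and 136 FPKM in SMC (-5.05 ± 0.17, adjusted p = 8.75e-20). Asns, asparagine synthetase, was at 13.8, 12.8 and 13.5 FPKM against 255, 237 and 237 FPKM (-4.08 ± 0.09). Slc7a5, an amino acid transporter, was at 7.37 to 10.8 against 148 to 156 FPKM (-3.98 ± 0.10), and Atf5 (-3.76), Cth (-3.54) and Nupr1 (-3.33) completed the 6 lowest. Atf4 itself was at 171, 195 and 164 FPKM in RA-16d and 499.7, 510.1 and 498 FPKM in SMC (-1.51 ± 0.05), and -0.91 with quantile normalization. The higher genes were Atf3 (3.28) and Fgf21 (1.33).

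In the unfolded protein response of the endoplasmic reticulum, 11 of 21 genes were lower (52.4%, against 12.5% of all genes) and none higher. The lower genes include Edem1 (-1.38), Dnajb11 (-1.38), Ero1l (-1.34) and Herpud1 (-1.30). Differences there were small, from -1.38 to 0.05 for the whole list, and 5 were lower with quantile normalization. Only 1 of the 21 passed through 1 group only. Hspa5, the main chaperone of the compartment, was at 366, 384 and 369 FPKM in RA-16d and 775, 751 and 733 FPKM in SMC (-1.01 ± 0.09). That call was lost with factors of the TMM kind, with quantile normalization and without RA-16d replicate 1 or SMC replicate 1.

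Immediate early genes rise within minutes of a stimulus such as serum or handling. They were higher in RA-16d for 14 of 22 tested and lower for 2, with 3 of the 22 passing through 1 group only. The shares are 63.6% and 9.09%, against 16.8% and 12.5% of all genes. These genes also differed among the RA-16d libraries. Fos was at 312, 41.0 and 315 FPKM in RA-16d and 19.3, 19.8 and 19.4 FPKM in SMC (2.97 ± 0.41, adjusted p = 3.00e-07). Fosb was at 102, 24.4 and 133 FPKM against 0.907, 0.701 and 0.495 FPKM (5.38 ± 0.33), and Egr1 at 231, 61.0 and 239 FPKM against 29.0, 29.5 and 31.5 FPKM (2.29 ± 0.27). Replicate 2 was the lowest RA-16d library for 18 of 20 such genes with a mean of at least 5 FPKM, against 36.1% of all genes at that level. Without it the Fos difference was 3.94, that of Fosb 6.12 and that of Egr1 2.93, and 15 genes were higher. Nr4a1, a nuclear receptor of the same kind, was more even, at 451, 274 and 497 FPKM in RA-16d and 9.85, 11.4 and 9.83 FPKM in SMC (5.12 ± 0.17). Myc (-1.63 ± 0.16) and Fosl1 (-2.45 ± 0.15) were the lower genes.

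Few proliferation genes were called. Of 38 genes of the G1/S transition and DNA replication 2 were higher and 3 lower, and of 37 genes of G2 and mitosis 2 were higher and none lower, below the share of all genes in either direction. Their medians were 0.17 and 0.24, and in sum the mitotic genes reached 916 to 1078 FPKM in RA-16d and 857 to 899.7 in SMC. Inhibitors of the cell cycle and targets of p53 were mixed, with 8 higher and 4 lower of 32. The shares are 25.0% and 12.5%, against 16.8% and 12.5% of all genes, so the lower share is that of all genes. Cdkn2a, which encodes p16 and p19, was at 281, 285 and 293 FPKM in RA-16d and 46.1, 50.4 and 50.5 FPKM in SMC (2.53 ± 0.07). Cdkn1a was at 351 to 378 and 421 to 451 FPKM (-0.25 ± 0.09) and was not called.

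Secreted signals of the immune system went both ways, with 13 higher and 11 lower of 32 tested from 38, 3 of them through 1 group only. They make 40.6% and 34.4%, against 16.8% and 12.5% of all genes. Beside Csf1, the chemokines Cxcl14 (-4.02), Ccl7 (-3.94) and Cxcl12 (-2.65), the decoy receptor Tnfrsf11b (-2.98) and the cytokine Il6 (-2.77) were lower. Ccl7 was at 14.1, 7.52 and 10.1 FPKM in RA-16d and 177, 169.7 and 168 FPKM in SMC. Higher were the acute-phase gene Saa3, at 119, 102.8 and 95.1 FPKM against 9.89, 8.70 and 11.6 FPKM (3.27 ± 0.32), the alarmin Il33 (3.23), C1s1 (2.24), Ptgs1 (2.16), Cxcl10 (1.93) and Ptgs2 (1.92). Interferon-induced genes were higher for 13 and lower for 2 of 32 tested, with Rtp4 (2.58), Ifi44 (2.23) and Oasl2 (2.12) at the top. Their shares are 40.6% and 6.25%, and 3 of the 32 passed through 1 group only. Isg15 was at 92.6 to 101 FPKM in RA-16d and 91.4 to 99.95 in SMC and was not called.

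**Figure D3:**
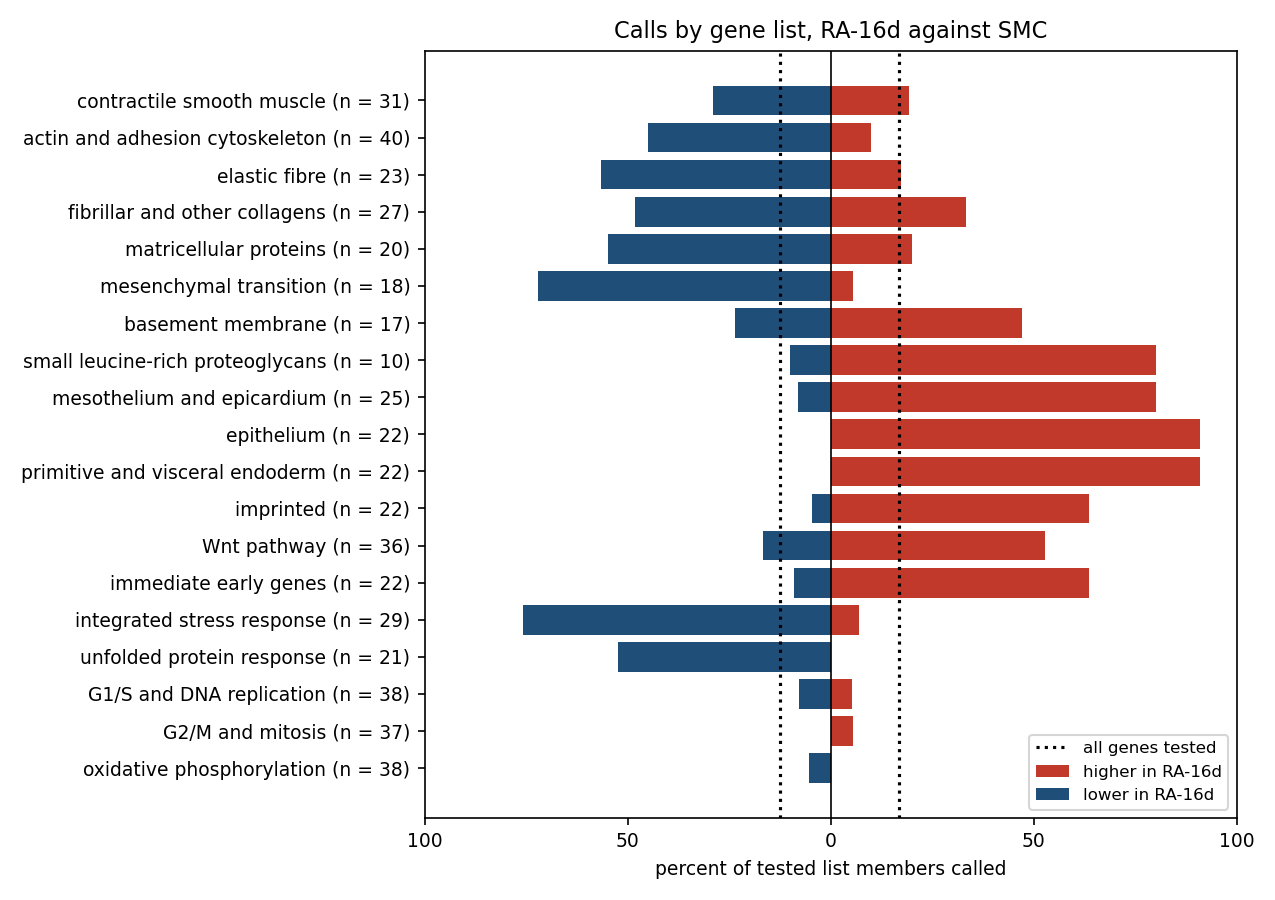
Percent of the tested members of 19 gene lists that were called higher (right, red) or lower (left, blue) in RA-16d than in SMC, with dotted lines at the shares of all tested genes, 16.8% and 12.5%. The bars of the epithelial, endodermal and mesothelial lists reach 80.0% to 90.9% on the right, and those of the mesenchymal transition and the integrated stress response 72.2% and 75.9% on the left.

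The retinoic acid series places the RA-16d levels on a course. Acta2 was at 28.1 FPKM in mES, 90.03, 595 and 469 FPKM on days 4, 7 and 10, and 3683 FPKM on day 16, as means of 3 libraries. Myh11 was at 0.0772 FPKM in mES and 2.93 FPKM on day 10, before its 85.8 FPKM on day 16. Actg2 was at 94.7 FPKM on day 10 and 1720.1 on day 16, and Cnn1 at 21.7 and 562 FPKM, beside their SMC means (1412 and 451 FPKM). In the retinoic acid series these 4 genes were highest on day 16. The SDs are drawn in the plot of levels by day, and no test was made across days.

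Genes outside the contractile list had other courses. Krt18 was at 504 FPKM on day 4 and 347 FPKM on day 16, and Wt1 at 122 FPKM on day 10 and 104 FPKM on day 16. Igf2 was at 8.94 FPKM in mES, 258 FPKM on day 4, 1249 FPKM on day 10 and 3009 FPKM on day 16. Col1a2 was at 4.899 FPKM on day 10 and 193 FPKM on day 16, against 5059.5 FPKM in SMC. Wisp2 stayed at or under 0.538 FPKM throughout the retinoic acid series. The arm with CHIR ended on day 16 with 189 FPKM of Acta2 and 0.217 FPKM of Myh11, and XEN held 157 and 0.0379 FPKM.

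**Figure D4:**
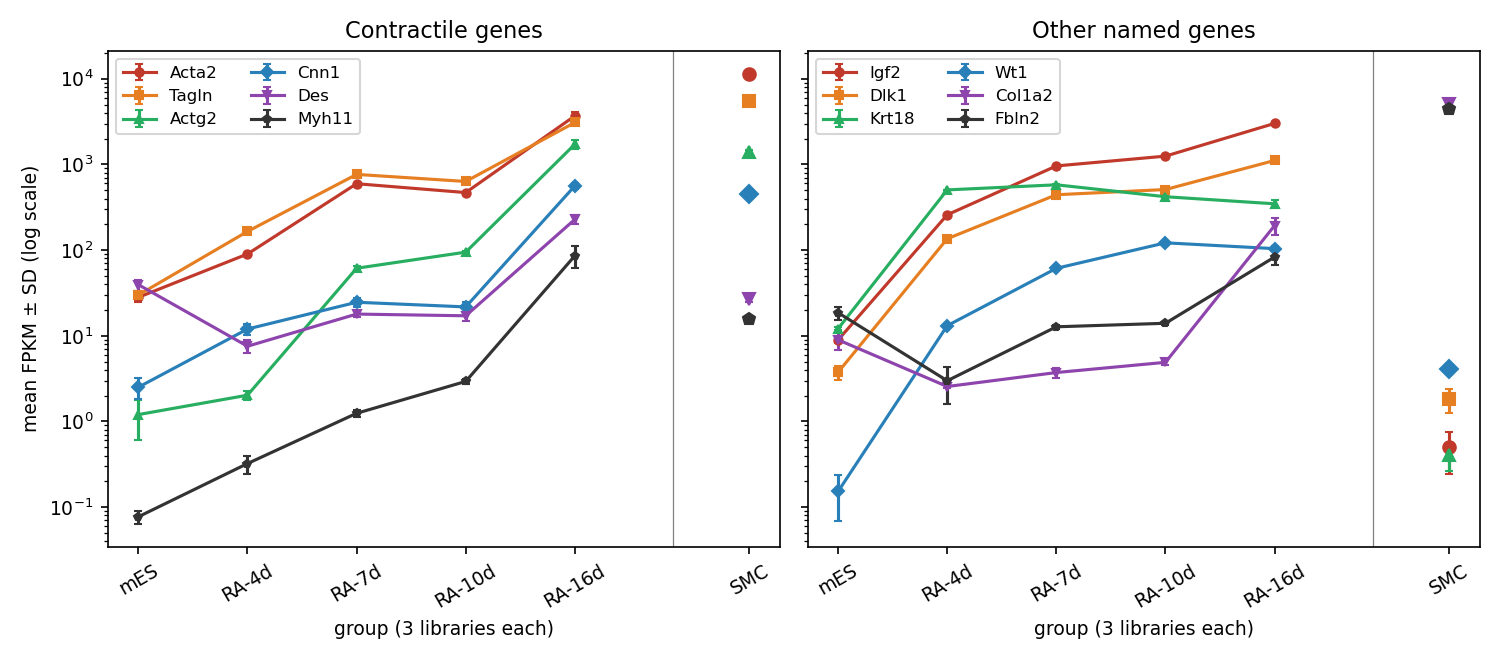
Mean FPKM on a log scale, with bars of 1 SD over 3 libraries (lower bars are shortened where they would reach 0), for 6 contractile genes (left) and 6 other named genes (right) in mES, the 4 days of retinoic acid treatment and, right of the grey line, SMC. Myh11 passes its SMC level only at day 16, and Igf2 and Dlk1 lie above their SMC level in each group shown.

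A further difference concerned genes with near-identical copies elsewhere in the genome, a set picked after its values were seen. Rps3a1, a ribosomal protein gene, was at 37.9, 25.8 and 32.2 FPKM in RA-16d and 1767, 1738 and 1625 FPKM in SMC (-5.71 ± 0.11). Its copies Rps3a2 and Rps3a3 showed the reverse, so that they held 97.4% to 97.7% of the family's summed FPKM in RA-16d and 1.35% to 1.999% in SMC. The sum over the family was 1261 ± 170.2 (SD, n = 3) FPKM in RA-16d and 1739 ± 71.5 in SMC. For Rpl34 and its copy Rpl34-ps1 the copy held 94.9% to 95.5% in RA-16d and 1.76% to 2.08% in SMC. Eno1, a glycolytic enzyme gene, gave 54.1% to 56.2% of its sum to Eno1b in RA-16d and 0.275% to 0.388% in SMC. In all 3 families the other groups grown from stem cells lay near RA-16d and XEN near SMC. How reads were divided between near-identical copies, and whether counting used the strand, is not given in the sources used here, so the levels of such copies, of overlapping genes and of antisense pairs are uncertain. Rpl29 was at 10.3, 8.53 and 4.65 FPKM in RA-16d and 1386, 1307 and 1196 FPKM in SMC, with 1131 FPKM in XEN and 22.3 FPKM in mES.

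The pattern was rare among pseudogenes that carry the name of their parent. Copies under other names, among them Rps3a2, Rps3a3 and Eno1b, were not in that count. How common the pattern is among all near-identical copies was not tested. Of 500 pairs of a gene and a pseudogene named after it with at least 10 FPKM in sum, 7 had a copy share more than 25 points higher in RA-16d and 1 in SMC. The 7 include Rpl3-ps1, whose parent Rpl3 is one of the 6 lower genes among 40 ribosomal protein genes, at 29.0 to 46.5 FPKM in RA-16d and 548 to 562 in SMC (-3.79 ± 0.10). Those 6 make 15.0% of the 40, near the 12.5% of all genes, and none of the 40 was higher. The other 5 were Rplp0 (-2.42), Rps2 (-2.04), Rplp1 (-1.58), Rpl30 (-1.57) and Rpl38 (-1.18, or -0.47 with quantile normalization), and whether they too share reads with copies was not tested. Processed pseudogenes summed to 16017 to 24577 FPKM in RA-16d, 7574 to 11248 in SMC and 7975 to 9432 in XEN, and 83 of 404 tested were higher and 23 lower, or 20.5% and 5.69% against 16.8% and 12.5% of all genes. With only protein-coding genes in the fit, an alternative chosen after seeing the data, 1993 genes were higher and 1529 lower.

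**Figure D5:**
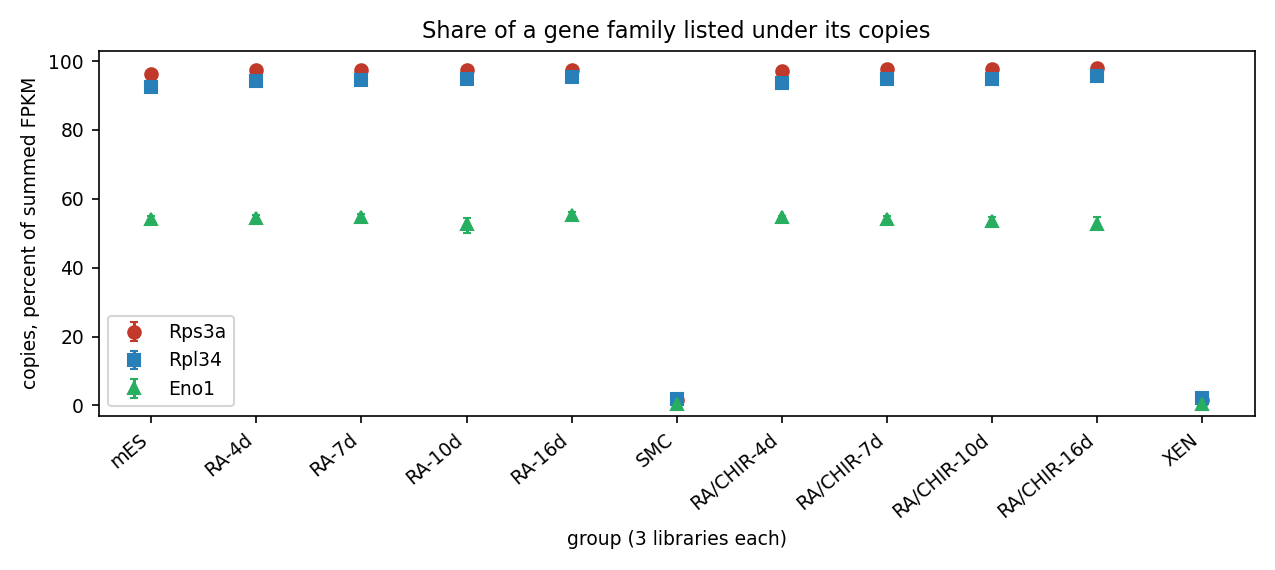
Share of the summed FPKM of 3 gene families that is listed under the copies (Rps3a2 and Rps3a3, Rpl34-ps1, Eno1b) in each of the 11 groups, as the mean of 3 libraries with bars from the lowest to the highest library. The 9 groups from stem cells lie at 52.6% or more, and SMC and XEN at 2.14% or less.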

How the data were processed

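Poly(A)-selected RNA was sequenced in 33 libraries of 11 groups, 3 each. The deposited values are FPKM per gene, computed by the authors. Per the submitters' processing notes, the tools were HISAT2 2.0.4, Trimmomatic 0.33, Cuffdiff and Cufflinks on the build GRCm38, and parameters are not given in the sources used here. FPKM values carry no counts, so the depth behind each value is unknown and no counting interval is given.

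Genes with at least 1 FPKM in at least 3 of the 6 libraries compared were kept (13743), and 478 on chromosomes X or Y and 13 without coordinates were left out. Symbols that a spreadsheet had turned into dates, 13 in all, were restored by gene ID. Values were tested as log2(FPKM + 1), which understates changes of low genes, with limma 3.58.1 in R 4.3.3. All 33 libraries shared the estimate of spread with a variance trend, the contrast was RA-16d minus SMC, and p-values were adjusted by Benjamini-Hochberg over 13252 genes. The fit was tested on simulated data. The rule for named genes took the 15 highest and 15 lowest called genes with at least 5 FPKM in the higher group, no overlap between groups and no clone-type or shared name, a fixed set of identity genes, and up to 6 called members of each list in each direction with its uncalled core members. Other members named were chosen after their values were seen. The members and lists were chosen with earlier results of these data known. Alternatives changed the scaling, pseudocount, floor, libraries and minimum change. Promoters came from RefSeq (GRCm38.p6) and coordinates from an annotation of GRCm38. Tables were made with pandas 2.3.3 and numpy 2.4.6 and plots with matplotlib 3.10.9 in Python 3.11.15. A few genes that the rule would name are not reported here.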

Additional observations from a re-analysis of the deposited data

How the results depend on the processing

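Against 2227 higher and 1658 lower genes, a floor of 5 FPKM gave 1377 higher and 1374 lower. No minimum change gave 4864 higher and 4835 lower, and a minimum of 2 gave 853 and 489. Of the contractile genes, 6 were higher and 9 lower. With no minimum 11 were higher and 16 lower, a minimum of 2 left 1 lower, and quantile normalization left 4 lower. A floor of 5 FPKM left 5 higher and 9 lower. Quantile normalization gave 1800 higher and 1874 lower genes in all, so 49.0% of its calls were higher against 57.3%. Factors of the TMM kind gave 2224 and 1604, and a pseudocount of 0.1 gave 2586 and 1875. The median log2 difference of all genes was 0.00, 0.02 with those factors and -0.04 with quantile normalization. Leaving out each library in turn gave 2207 to 2261 higher and 1615 to 1694 lower genes, with 6 to 7 contractile genes higher and 9 to 10 lower. Over 1092 named and listed genes, no alternative reversed a direction of a call; of 17289 pairs of gene and setting, 146 lost a call and 116 gained one.

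Replicate numbers are shared by the groups, but same-numbered libraries did not deviate together (correlations -0.009, -0.021 and -0.016). A fit with the replicate number as a block gave 2227 higher and 1659 lower genes. Depth is unknown, so low values such as those under 1 FPKM have no stated precision, and the origin of the SMC culture and of the replicates is not in the labels.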
